A study of Mus musculus with 15 samples.

Results

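The genes described here are 9 ligands and receptors of the PDGF, FGF, EGF and HGF families: the receptors Pdgfra, Pdgfrb, Fgfr1, Fgfr2, Egfr and Met, and the ligands Fgf2, Fgf7 and Hgf. They were found by symbol in a table of 65522 transcription units, in which they account for 15 units. A transcription unit is a group of assembled transcripts that shares a single expression value per sample. RNA-seq was carried out on 15 samples of female C57BL/6 mouse embryonic fibroblasts. Primary cells, grown before passage 5, came from single embryos of day 13 or 14, and culture-adapted cells are the lines that grew out of the same primary populations after extended passage. There were 3 primary and 3 adapted WT populations (CIZ1 +/+, from embryos E14.4, E13.1 and E13.8). There were also 3 primary and 3 adapted CIZ1 null populations (CIZ1 -/-, embryos E13.15, E13.17 and E14.2), in which a gene trap disrupts Ciz1 and 1 of the embryos, E13.17, also carries a doxycycline-inducible GFP-CIZ1 transgene. Another untreated transgenic CIZ1 null sample (S13) and 2 transgenic CIZ1 null samples given doxycycline at 5 to 10 µg/ml (S14 and S15) were primary cells as well. The paper induced GFP-CIZ1 in 2 such lines, 1 of them E13.17, so untreated and treated samples share a line. The CIZ1 null mice all descend from a single ES cell clone, each adapted population is 1 line per embryo, and the 4 groups of 3 were otherwise untreated.

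PDGF, FGF, EGF and HGF are secreted growth factors that act through receptor tyrosine kinases at the cell surface. Ligand binding pairs the receptors, and their phosphorylated tails recruit adaptors that switch on RAS, ERK and PI3K signalling, which in turn induces feedback inhibitors such as the Sprouty proteins and the dual-specificity phosphatases. Fibroblasts respond to PDGF and FGF2 with division and migration, and release FGF7 and HGF, whose receptors are found mainly on neighbouring epithelial cells.

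Ciz1 itself was between 19.1 and 25.0 FPKM in primary WT cells and between 18.7 and 24.1 in adapted WT cells, but no more than 0.724 FPKM in the CIZ1 null populations without doxycycline, and it reached 191 and 296 FPKM in the treated ones. FPKM are fragments per kilobase of transcript, scaled to library size, so levels can be set against each other between genes. In primary populations all 8 fibroblast markers were at or above 1 FPKM in every sample. In adapted cells only 4 of the 8 were so in WT and 5 of the 8 in CIZ1 null, and the summed marker level fell from a range of 8093 to 8789 FPKM in primary WT cells to 2646 to 4711 in adapted WT cells and 2283 to 4446 in adapted CIZ1 null cells. All 7 epithelial markers were under 1 FPKM in every adapted population, and the 3 myoblast markers were at 0 in them. In primary cells the epithelial markers summed to 1.25 to 3.61 FPKM in WT and 1.01 to 12.67 FPKM in CIZ1 null populations. Primary CIZ1 null E13.15 had Krt8 at 8.06 FPKM and the neural and glial marker Sox10 at 4.93 FPKM. Sequencing depth, relative to primary WT E14.4, was 1 to 1.63 in primary WT, 1.21 to 1.45 in primary CIZ1 null, 0.620 to 1.19 in adapted WT and 0.541 to 0.901 in adapted CIZ1 null libraries. Markers of pericytes and smooth muscle summed to 5024 to 6232 FPKM in primary WT, 2924 to 5156 in primary CIZ1 null, 819.1 to 2495 in adapted WT and 348.7 to 3691 in adapted CIZ1 null cells. Macrophage and blood markers reached their highest sum, 19.56 FPKM, in primary CIZ1 null E13.17. Col1a1 and Vim made up most of the fibroblast sums in primary cells and Acta2 most of the pericyte sums, and single markers went the other way. Dcn, at 24.1 to 68.5 FPKM in the primary WT and CIZ1 null populations, was at 905 FPKM in adapted E14.4, 800.0 in adapted E13.15 and 993 in adapted E14.2, and Rgs5 went from at most 0.506 FPKM in primary WT to between 2.94 and 21.5 FPKM in adapted WT cells. In the transgenic samples of the induction comparison, fibroblast markers summed to 7438 and 8701 FPKM untreated and to 5347 and 6507 FPKM with doxycycline. Relative depth was 0.482 in untreated S13, 1.17 in treated S14 and 0.876 in treated S15. Depth and the summed levels of these markers thus moved with adaptation, and the fibroblast sum also differed between untreated and treated samples. Their part in the results was not tested.

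In primary WT cells the receptors Fgfr1 and Pdgfrb had the highest levels of the 9 genes, with medians of 82.1 and 57.8 FPKM. Met and Hgf had the lowest, with medians of 2.64 and 3.91 FPKM, and the ranges of both stayed under 5 FPKM. Fgf7 (36.2 FPKM), Egfr (17.8 FPKM), Fgf2 (15.9 FPKM) and Pdgfra (9.64 FPKM) lay between them. The value listed for Fgfr2 (median 34.5 FPKM) belongs to a unit that also takes in Ctbp2, a widely expressed transcriptional co-repressor, and Gm15718, and it cannot be assigned to the receptor. For 6 of the genes (Pdgfra, Pdgfrb, Fgf7, Egfr, Met and Hgf) the table holds a second, lower unit at the same locus, and the pair of units correlated across the 15 samples with Pearson r from 0.783 to 0.994. The 2 units of a gene are not independent, and the higher one is given here unless the second is named.

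**Figure D1:**
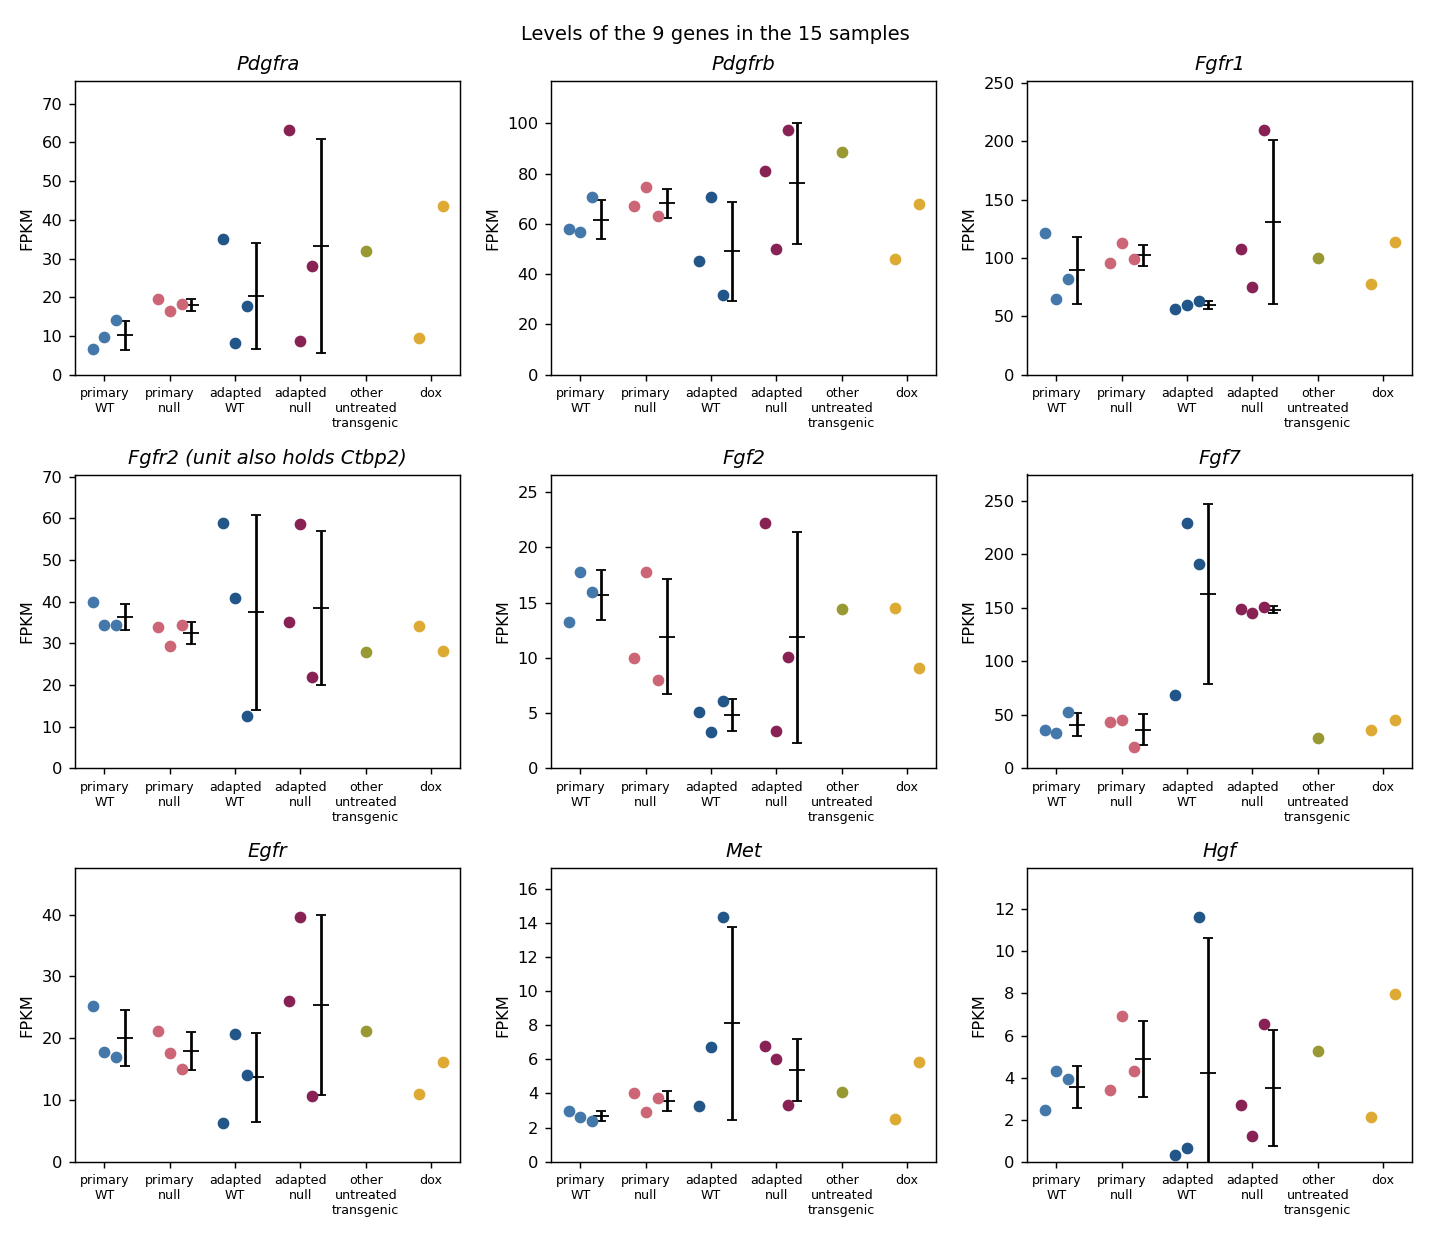
Levels of the 9 genes in FPKM (linear axes from 0) in the 15 samples, 1 point per sample, with the mean and SD beside each group of 3 (the lower bar of adapted WT Hgf is cut at 0). Fgf7 lies at 52.8 FPKM or less in every primary population and at 68.5 FPKM or more in every adapted one. Pdgfra, Egfr and Hgf spread widely among the adapted lines of both genotypes. Fgf7 and Met do so among adapted WT lines, from 68.5 to 229 FPKM and from 3.27 to 14.3 FPKM.

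Comparing each adapted group with its primary group asks which genes change as fibroblasts adapt to culture. Fgf7, the keratinocyte growth factor, rose 4.12-fold in CIZ1 null cells and was 4.01 times as high in adapted as in primary WT cells, where it narrowly missed the threshold. The unit of Fgf2, a broad fibroblast mitogen, fell 3.23-fold in WT cells, but it also takes in the coding gene Bbs12, so the fall cannot be assigned to Fgf2 alone. The test was limma's on log2(FPKM + 1), with p adjusted by the Benjamini-Hochberg method over all units tested and a threshold of 0.05. Adaptation of WT cells gave 1 call among the 9 genes, the merged Fgf2 unit, where 9.55% of all 19919 units tested were called, 2.87% upwards and 6.68% downwards. Adaptation of CIZ1 null cells also gave 1 call, Fgf7, where 4.86% of all 20044 units were called, 1.4% upwards and 3.47% downwards. A single call in 9 genes is close to the share over all units in WT cells. As the RNA is from whole populations, a change in a transcript per cell and a change in the share of cells that make it cannot be told apart.

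Fgf7 lies at chr2:125830304-126152004 (GRCm38), a locus of the authors' assembly that also holds Cops2, Galk2 and Fam227b. In primary WT cells its level was 36.2 FPKM in E14.4, 32.8 in E13.1 and 52.8 in E13.8. The adapted lines of these embryos reached 191, 68.5 and 229 FPKM in the same order. All 3 adapted WT lines were thus above all 3 primary populations, with 2.09 times the primary level in E13.1, 5.29 times in E14.4 and 4.33 times in E13.8. In primary CIZ1 null cells the level was 43.1 FPKM in E14.2, 45.4 in E13.15 and 19.5 in E13.17, and in the adapted lines it was 151, 149 and 145 FPKM. The adapted CIZ1 null lines lay within 1.04-fold of each other, the narrowest range of any of the 9 genes in any group of 3, after starting from primary levels that differed 2.32-fold.

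The mean of Fgf7 was 36.0 ± 14.3 FPKM in primary and 148 ± 3.12 FPKM in adapted CIZ1 null cells (SD, n = 3 each), a 4.12-fold difference. The log2 change was 2.10 (SE 0.333, 95% interval 1.30 to 2.90), which passed limma's test with a Benjamini-Hochberg adjusted p of 0.0303. When primary and adapted cells were paired by embryo in the fit, the same change had an adjusted p of 0.0776, and the call was also lost without any of the 3 primary populations, without adapted E13.17 (adjusted p = 0.05005) or adapted E14.2 (adjusted p = 0.0792), over a range of log2 changes of 1.72 to 2.31. In WT cells the means were 40.6 ± 10.7 and 163 ± 83.8 FPKM, a 4.01-fold difference, and the log2 change of 1.83 (SE 0.469, 95% interval 0.71 to 2.96) had a limma adjusted p of 0.0580. The second Fgf7 unit passed in both genotypes, with log2 changes of 2.25 in WT cells (adjusted p = 0.0329) and 2.46 in CIZ1 null cells (adjusted p = 0.0265). Paired by embryo it did not pass in either (adjusted p = 0.0510 and 0.0708), nor did it without a filter in WT cells (0.0612) or without primary E13.17 in CIZ1 null cells (0.0549). Without adapted E13.1, the line with the smallest difference, the main unit passed in WT cells too, with a log2 change of 2.37 and an adjusted p of 0.0160. Without any other single WT population it did not pass, with log2 changes of 1.504 to 2.04 and adjusted p of 0.0890 to 0.185. The direction was up in 6 of 6 embryos, and the difference between the genotypes was 0.27 on the log2 scale (SE 0.620, 95% interval -1.10 to 1.64), a range that holds both a larger and a smaller rise in CIZ1 null cells.

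Fgf2 lies at chr3:37307749-37579096, in a unit that also lists Bbs12, a gene of the Bardet-Biedl syndrome family, and Gm43439, and all values given for Fgf2 are those of this merged unit. Its levels in primary WT cells were 13.3 FPKM in E14.4, 17.8 in E13.1 and 15.9 in E13.8, and the adapted lines fell to 6.13, 5.09 and 3.30 FPKM. The WT groups did not overlap and all 3 embryos went down, to between 0.207 and 0.462 of the primary level. The means were 15.7 ± 2.26 and 4.84 ± 1.43 FPKM (SD, n = 3 each), and the log2 change was -1.53 (SE 0.239, 95% interval -2.11 to -0.96, limma adjusted p = 0.0202). Paired by embryo, the adjusted p was 0.0548, and without any of the 3 primary WT populations it was between 0.0779 and 0.103, with the change still between -1.44 and -1.64. In CIZ1 null cells the primary levels were 9.97 FPKM in E14.2, 17.8 in E13.15 and 7.94 in E13.17, and the adapted levels were 10.1, 22.2 and 3.32 FPKM. These 3 embryos thus did not share a direction, and the log2 change of -0.24 had an SE of 0.621 and an adjusted p of 0.819. The difference between the genotypes, tested by limma as an interaction, was 1.29 on the log2 scale with a 95% interval from -0.30 to 2.88 and an adjusted p of 0.996, so the calls in 1 genotype and not in the other do not show that the genotypes differ.

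The bases before the start sites of these 2 ligand genes are shown because their units passed the test. They are the 150 bases upstream of the RefSeq start in GRCm38.p6, plus strand, with capitals marking a CCAAT box in Fgf7 and a GC box in Fgf2.
Fgf7 (chr2:126034508-126034657): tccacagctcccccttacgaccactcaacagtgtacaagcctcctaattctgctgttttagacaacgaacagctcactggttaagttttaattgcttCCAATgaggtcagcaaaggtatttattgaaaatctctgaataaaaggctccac
Fgf2 (chr3:37348503-37348652): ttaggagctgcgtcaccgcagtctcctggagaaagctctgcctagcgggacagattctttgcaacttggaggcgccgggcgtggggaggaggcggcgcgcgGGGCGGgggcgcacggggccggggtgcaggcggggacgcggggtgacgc
The 2 sequences differ in base composition. Over the full 250 upstream bases the Fgf7 window was 43.6% G and C with 6 CpG dinucleotides, and the Fgf2 window was 62.4% with 20, where the medians over 32851 promoters were 52.4% and 6. The motifs searched on both strands were AP-1 (TGANTCA, in 6.75% of all promoters), the TATA box (TATAAA, 12.4%), the GC box (GGGCGG, 32.7%), the CCAAT box (CCAAT, 33.8%) and the E-box (CANNTG, 66.2%). The 250 bases of Fgf7 held the CCAAT box and 1 E-box, and those of Fgf2 held the GC box alone. Promoters of 7 of the 9 genes were in the RefSeq table, and among them the Met window had an AP-1 match and 3 GC boxes with 74.0% G and C, the highest of the 7.

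Hgf, the ligand of Met, lies at chr5:16553495-16622598 in a unit that also lists Gm43489. Its primary WT levels were 2.44 FPKM in E14.4, 4.30 in E13.1 and 3.91 in E13.8, and the adapted levels were 11.6, 0.324 and 0.633 FPKM. The E14.4 line had 4.78 times its primary level while E13.1 and E13.8 had 0.0754 and 0.162 of theirs, which left a 36.0-fold range among the adapted WT lines. The log2 change was -0.57 with an SE of 0.841 and a limma adjusted p of 0.684. Without adapted E14.4 it was -1.61 with an adjusted p of 0.0251. Among CIZ1 null embryos the level went from 3.42 to 6.56 FPKM in E14.2, from 6.92 to 2.72 in E13.15 and from 4.31 to 1.21 in E13.17. In each genotype, then, 1 line was above its primary population and 2 were below, and the log2 change in CIZ1 null cells was -0.53 (SE 0.475, adjusted p = 0.487). The second Hgf unit had the opposite sign, with log2 changes of 0.37 (SE 0.640) in WT and 0.16 (SE 0.524) in CIZ1 null cells.

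Met, the HGF receptor, at chr6:17463407-17574178, went from 2.99 to 14.3 FPKM in WT E14.4, from 2.64 to 3.27 in E13.1 and from 2.41 to 6.73 in E13.8. The WT groups did not overlap, but the log2 change of 1.12 (SE 0.446, 95% interval 0.05 to 2.19) had a limma adjusted p of 0.149, and 0.0441 without adapted E13.1. With CIZ1 absent, Met went from 4.03 to 3.34 FPKM in E14.2, from 2.89 to 6.77 in E13.15 and from 3.70 to 6.01 in E13.17, a log2 change of 0.45 (SE 0.270, adjusted p = 0.306). In the second Met unit the WT groups overlapped, since E13.1 went from 2.17 to 1.93 FPKM, and the log2 changes were 1.14 (SE 0.526, adjusted p = 0.199) in WT and 0.63 (SE 0.272, adjusted p = 0.181) in CIZ1 null cells. Adapted E14.4 thus had the highest level of both Met and its ligand among the 12 paired populations.

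**Figure D2:**
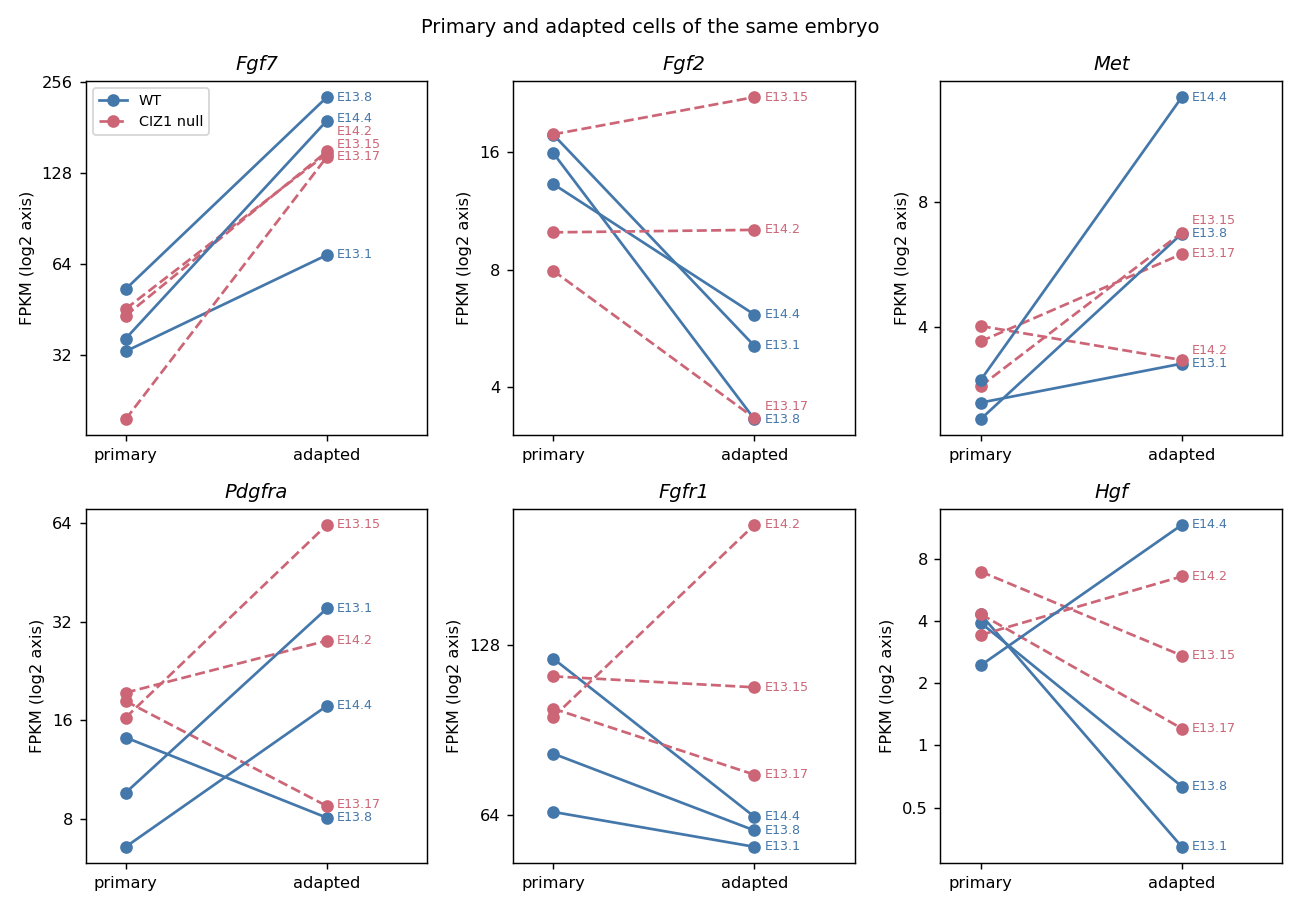
Level in primary and adapted cells of the same embryo (log2 axis in FPKM), with WT embryos as solid blue and CIZ1 null embryos as dashed red lines. Fgf7 goes up in 6 of 6 embryos, Fgf2 goes down in 3 of 3 WT embryos and in 1 of 3 CIZ1 null embryos, and Pdgfra and Hgf cross in both genotypes.

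The PDGF receptors did not pass the test on adaptation in either genotype. Pdgfra, whose ligands include the PDGF-A and PDGF-C chains, lies at chr5:75152292-75198215 in a unit with Mir7025. Its level went from 6.59 to 17.7 FPKM in WT E14.4, from 9.64 to 35.1 in E13.1 and from 14.2 to 8.08 in E13.8. The CIZ1 null embryos went from 19.4 to 28.004 FPKM in E14.2, from 16.3 to 63.2 in E13.15 and from 18.3 to 8.77 in E13.17. Each genotype therefore had 2 lines above their primary population and 1 below, at 0.569 (E13.8) and 0.479 (E13.17) of the primary level, and the log2 changes were 0.77 (SE 0.523, adjusted p = 0.358) in WT and 0.47 (SE 0.637, adjusted p = 0.650) in CIZ1 null cells. The second Pdgfra unit had log2 changes of 1.36 (SE 0.548, limma adjusted p = 0.153) in WT and 0.54 (SE 0.668, adjusted p = 0.614) in CIZ1 null cells. Pdgfrb, which binds PDGF-B and PDGF-D, stayed within 31.9 to 97.4 FPKM over the 12 samples. Its adapted levels were 0.551 to 1.0002 times the primary level in WT embryos and 0.794 to 1.45 times in CIZ1 null embryos, with log2 changes of -0.39 (SE 0.299) and 0.11 (SE 0.271). Its second unit gave -0.45 and -0.02.

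Fgfr1, the main FGF receptor of fibroblasts, lies at chr8:25513654-25575714. It went from 121 to 63.4 FPKM in WT E14.4, from 64.7 to 56.1 in E13.1 and from 82.1 to 60.0 in E13.8. The level was lower in 3 of 3 WT embryos and the groups did not overlap, but the log2 change of -0.52 (SE 0.247, 95% interval -1.12 to 0.07) had a limma adjusted p of 0.207. The CIZ1 null embryos went from 95.4 to 209.8 FPKM in E14.2, from 113 to 108 in E13.15 and from 98.8 to 75.4 in E13.17, a log2 change of 0.23 (SE 0.371). Egfr, the EGF receptor, lies at chr11:16752201-17079371, a locus of the authors' assembly that also holds Fbxo48, Plek and Cnrip1. Egfr ranged from 6.19 to 20.7 FPKM in adapted WT and from 10.6 to 39.6 FPKM in adapted CIZ1 null lines. In the primary populations of both genotypes it was at 15.1 to 25.2 FPKM. Its log2 changes were -0.64 (SE 0.415) in WT and 0.31 (SE 0.455) in CIZ1 null cells, and its second unit went to 0.12 and 0.87, so the sign in WT cells differed between the units. The merged unit of Fgfr2 and Ctbp2 ranged from 12.5 to 58.8 FPKM in adapted WT and from 22.0 to 58.6 FPKM in adapted CIZ1 null lines, with log2 changes of -0.20 (SE 0.528) and 0.14 (SE 0.349).

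In WT adaptation 4 of the 9 genes (Fgf2, Fgf7, Fgfr1 and Met) had groups that did not overlap, where 38.7% of all units did. In CIZ1 null adaptation it was 1 of 9, Fgf7, against 37.1% of all units. Lines of the same group differed more after adaptation for 8 of the 9 genes in each genotype. The median SD of log2(FPKM + 1) over the 9 genes was 0.299 in primary WT and 0.923 in adapted WT cells, beside 0.185 and 0.360 over all units. It was 0.193 in primary CIZ1 null and 0.743 in adapted CIZ1 null cells, beside 0.216 and 0.357 over all units. The exceptions were Fgfr1 in WT and Fgf7 in CIZ1 null cells, the genes whose adapted lines lay closest together.

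**Figure D3:**
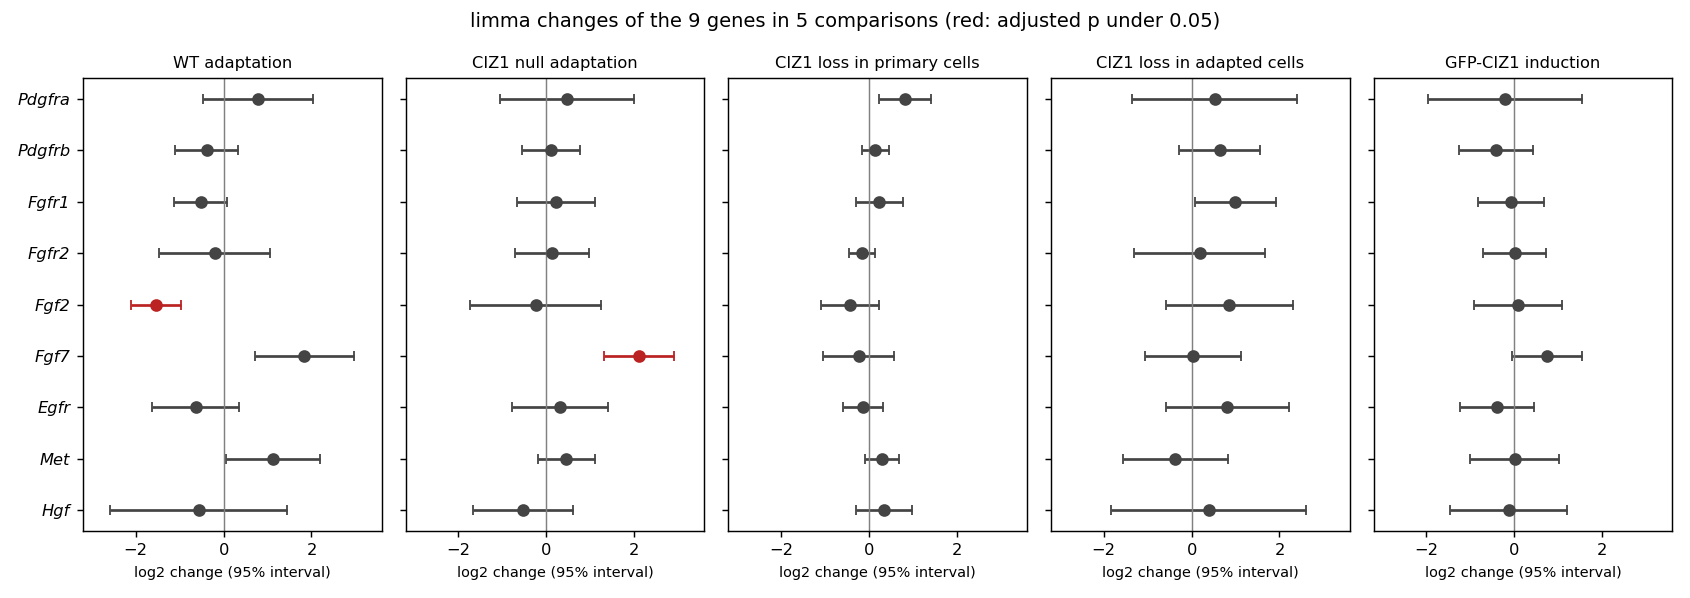
log2 change of each gene from limma on log2(FPKM + 1), with its 95% interval, in the 5 comparisons between groups (later or treated group minus reference). Only the merged Fgf2 unit in WT adaptation (-1.53) and Fgf7 in CIZ1 null adaptation (2.10) are drawn in red, as passing an adjusted p of 0.05.

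Comparing CIZ1 null with WT cells at the same stage asks what loss of CIZ1 changes. None of the 9 genes was called in primary cells, where 0.00511% of 19566 units was called, and 1 of the 9 had an unadjusted p under 0.05, as did 6.26% of all units. That gene was Pdgfra, at 16.3 to 19.4 FPKM in the 3 primary CIZ1 null populations and 6.59 to 14.2 FPKM in the 3 WT ones. The means were 18.03 ± 1.58 and 10.1 ± 3.83 FPKM (SD, n = 3 each), and the log2 change was 0.83 (SE 0.249, 95% interval 0.24 to 1.42, limma adjusted p = 0.696). The second Pdgfra unit differed in the same direction, by 1.29 on the log2 scale (SE 0.308, adjusted p = 0.639). The groups did not overlap for 2 of the 9 genes, Pdgfra and the merged Fgfr2 unit, where 11.9% of all units did not. For the other 7 genes the log2 difference lay between -0.43 (Fgf2, SE 0.279) and 0.35 (Hgf, SE 0.268).

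In adapted cells none of the 9 genes was called either, where 0.00501% of 19976 units was called, and again 1 of the 9 had an unadjusted p under 0.05, beside 4.02% of all units. Fgfr1 was at 75.4 to 209.8 FPKM in the adapted CIZ1 null lines and 56.1 to 63.4 FPKM in the adapted WT lines. The log2 difference was 0.99 (SE 0.385, 95% interval 0.07 to 1.91, limma adjusted p = 0.998), and it was the only one of the 9 without overlap, where 8.28% of all units had none. Fgf7 did not separate the adapted groups, with a difference of 0.04 (SE 0.458, 95% interval -1.06 to 1.13). For Fgf2 (0.86, SE 0.601), Egfr (0.81, SE 0.583) and Pdgfrb (0.64, SE 0.384) the estimates were above 0 with overlapping groups. The interaction, which asks whether the effect of CIZ1 loss differs between adapted and primary cells, called 0% of 20046 units and none of the 9 genes, and at an unadjusted p under 0.05 it gave 928 units and 0 of the 9. Its widest estimates among them were Fgf2 (1.29, SE 0.720) and Egfr (0.95, SE 0.665).

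Returning CIZ1 to CIZ1 null cells tests what its re-expression changes. Doxycycline raised Ciz1 as given above, and none of the 9 genes was called, where 0.0101% of 19768 units was. At an unadjusted limma p under 0.05 there were 0 of the 9, beside 1.76% of all units. Fgf7 was at 19.5 FPKM in untreated E13.17 and 28.1 in untreated S13, and at 35.6 and 44.7 FPKM in the treated S14 and S15. It was the only one of the 9 whose groups did not overlap, where 19.7% of all units did not, and its log2 change was 0.74 (SE 0.321, 95% interval -0.05 to 1.54, limma adjusted p = 0.99996). The paper induced GFP-CIZ1 in 2 transgenic lines, 1 of them E13.17, so untreated and treated samples are not all from separate embryos. The labels do not say which line S13, S14 and S15 each came from. The samples were therefore not paired, and no direction within an embryo can be read. Their depths and fibroblast marker sums, given above, also differed. The groups overlapped for Pdgfra, with 18.3 and 31.9 FPKM untreated and 9.55 and 43.6 FPKM treated. They also overlapped for Hgf, with 4.31 and 5.26 FPKM untreated and 2.10 and 7.98 FPKM treated. There were 2 samples per group, no vector or doxycycline-only control was among the samples analysed here, and the intervals of the log2 changes reached from -1.97 to 1.53 for Pdgfra.

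The surrounding pathway was described with 10 lists of 136 genes in all, which take in the 9. The lists were chosen with earlier results of these data known, so the shares called in them are a description and no test of the pathway. Besides the 9, 93 listed genes were tested in WT adaptation, of which 19 fell and 0 rose, 20.4% lower against 6.68% over all units. In CIZ1 null adaptation 92 were tested, of which 6 fell and 0 rose, 6.52% lower against 3.47% over all units. The balance over all units depended on the scaling, while that of the lists stayed mostly downward in WT adaptation. Under quantile normalization all units gave 982 calls upwards and 1081 downwards in WT adaptation in place of 572 and 1330. The lists, with the 9 included, gave 3 upwards and 16 downwards there in place of 0 and 20. In CIZ1 null adaptation it gave 351 upwards and 501 downwards over all units in place of 280 and 695, and 2 upwards and 3 downwards in the lists. The share over all units also depended on the filter. With a mean of at least 5 FPKM, WT adaptation gave 439 calls upwards and 1141 downwards among 11737 units. The lists, with the 9 included, then gave 2 upwards and 17 downwards among 81. No listed gene was called in CIZ1 loss in primary cells, CIZ1 loss in adapted cells, induction or the interaction. At an unadjusted limma p under 0.05, CIZ1 loss in primary cells gave 5 of 7 PDGF ligands and receptors, Pdgfra included, beside 6.26% of all units. In that list 3 changes were above 0 and 4 below. Heparan sulphate genes gave 4 of 17, feedback inhibitors 2 of 17, adaptors and kinases 0 of 28, and each other list 0 or 1. Of the 20 calls in WT adaptation, Fgf2 included, all kept their direction in each alternative in which the unit was tested. Paired by embryo, 9 of the 20 kept an adjusted p under 0.05, and without any 1 of the 3 primary WT populations none did. Of the 7 calls in CIZ1 null adaptation, Fgf7 included, 0 remained when paired by embryo, without any 1 of the 3 primary populations or without adapted E14.2, and 2 remained without adapted E13.17.

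Among PDGF ligands and receptors, 2 of 7 tested fell in WT adaptation, both ligands of Pdgfra. Pdgfc went from 28.1 ± 4.13 to 8.54 ± 0.755 FPKM (SD, n = 3 each), a log2 change of -1.60 with a limma adjusted p of 0.0114. Pdgfa went from 28.2 ± 6.21 to 12.1 ± 1.35 FPKM, a log2 change of -1.14 with an adjusted p of 0.0280. Pdgfc also fell in CIZ1 null adaptation, from 18.004 ± 3.44 to 5.13 ± 1.57 FPKM (log2 change -1.65, adjusted p = 0.0298), as 1 of 6 genes tested there. Among FGF ligands 2 of 5 fell in WT cells, the merged Fgf2 unit and Fgf13, the latter an intracellular member of the family that is not secreted to act on receptors. Fgf13 went from 3.44 ± 0.481 FPKM to 0.111 ± 0.192 FPKM (adjusted p = 0.0122). Without CIZ1, 1 of 7 FGF ligands rose, Fgf7, the rise described above. Fgf10, a close relative that shares its receptor, was not called and was picked out after its values were seen, outside the rule for naming genes. In CIZ1 null adaptation it went from a mean of 3.85 to 19.9 FPKM with a log2 change of 2.01 and a limma adjusted p of 0.0779. Of the FGF ligands tested there, 5 had a change above 0 and 2 below. In WT adaptation it was 2 above and 3 below.

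Of the EGF family ligands none of 6 was called in WT cells and 1 of 5 in CIZ1 null cells, Areg (amphiregulin), which went from 2.04 ± 0.831 FPKM to being listed at 0 in all 3 adapted lines (adjusted p = 0.0363). None of the FGF receptors and co-receptors or the ErbB receptors was called in either genotype, out of 5 and 2 tested in WT and 4 and 2 in CIZ1 null cells. In the HGF group, 1 of 4 fell in WT cells, Plau (urokinase, a serine protease of the plasminogen system), from 97.2 ± 8.58 to 28.2 ± 12.6 FPKM (log2 change -1.83, adjusted p = 0.0219).

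Heparan sulphate proteoglycans, which present FGF2 and other ligands to their receptors, were represented by 17 genes, and 5 fell in WT adaptation while none rose. The core proteins Sdc3 (log2 change -2.36), Gpc1 (-1.997), Gpc4 (-1.43) and Gpc6 (-1.38) and the sulphotransferase Hs2st1 (-1.93) had limma adjusted p between 0.0132 and 0.0465. The largest of these in level, Sdc3, went from 134 ± 11.5 to 29.8 ± 18.4 FPKM. In CIZ1 null cells 2 of 17 fell, Sdc3 (-1.92) and the sulphotransferase Hs6st1 (-1.12 on the log2 scale), each with an adjusted p of 0.0468. The median over the 17 was -0.52 in WT and -0.15 in CIZ1 null cells, beside -0.05 and -0.04 over all units. Quantile normalization left 3 calls in WT and 0 in CIZ1 null cells.

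Of 28 adaptors and kinases of the RAS, ERK and PI3K cascades, 4 fell in WT adaptation and none rose. Among them were the genes of the small GTPase Hras (-1.24) and of the kinases Src (-1.18) and Akt1 (-0.71), with adjusted p between 0.0125 and 0.0313. The direction of this list turned with the scaling: quantile normalization gave 2 higher and 2 lower and moved its median from -0.12 to 0.092, and a mean of at least 5 FPKM, array weights and the single fit of 4 groups each gave 1 higher and 4 lower. Of the same 28, 1 fell in CIZ1 null cells, the tyrosine kinase gene Src (-0.97, adjusted p = 0.0468). The list medians of -0.12 and -0.13 lay close to those of all units.

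Of 17 feedback inhibitors tested, 5 fell in WT adaptation and none rose. Dusp4, a nuclear phosphatase that acts on ERK and related kinases, went from 62.1 ± 41.5 to 4.97 ± 7.86 FPKM, with a log2 change of -4.15 and an adjusted p of 0.0491. The Sprouty genes Spry1 and Spry4 went from 23.2 ± 1.51 to 5.76 ± 1.93 FPKM (adjusted p = 0.0138) and from 8.48 ± 5.10 to 1.72 ± 0.688 FPKM (adjusted p = 0.0475). The ubiquitin ligase gene Cblb (log2 change -1.45) and Spred3 (-0.89) completed the 5. Of the same 17, 1 fell in CIZ1 null cells, the ERK phosphatase gene Dusp5, from 21.2 ± 8.99 to 2.54 ± 1.33 FPKM (log2 change -2.65, adjusted p = 0.0305). The medians over the 17 were -0.89 in WT and -0.47 in CIZ1 null cells. Of 11 ERK-responsive genes, 1 fell in WT cells, the immediate early gene Ier2 (-1.64, adjusted p = 0.0211), and none was called in CIZ1 null cells. Their medians were nevertheless alike by default, at -0.80 in each genotype. With array weights they were -0.63 in WT and -1.12 in CIZ1 null cells. Under quantile normalization the median over all units moved from -0.05 to 0.06 in WT and from -0.04 to 0.06 in CIZ1 null cells, and 16 of the 20 WT calls and 4 of the 7 CIZ1 null calls remained.

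**Figure D4:**
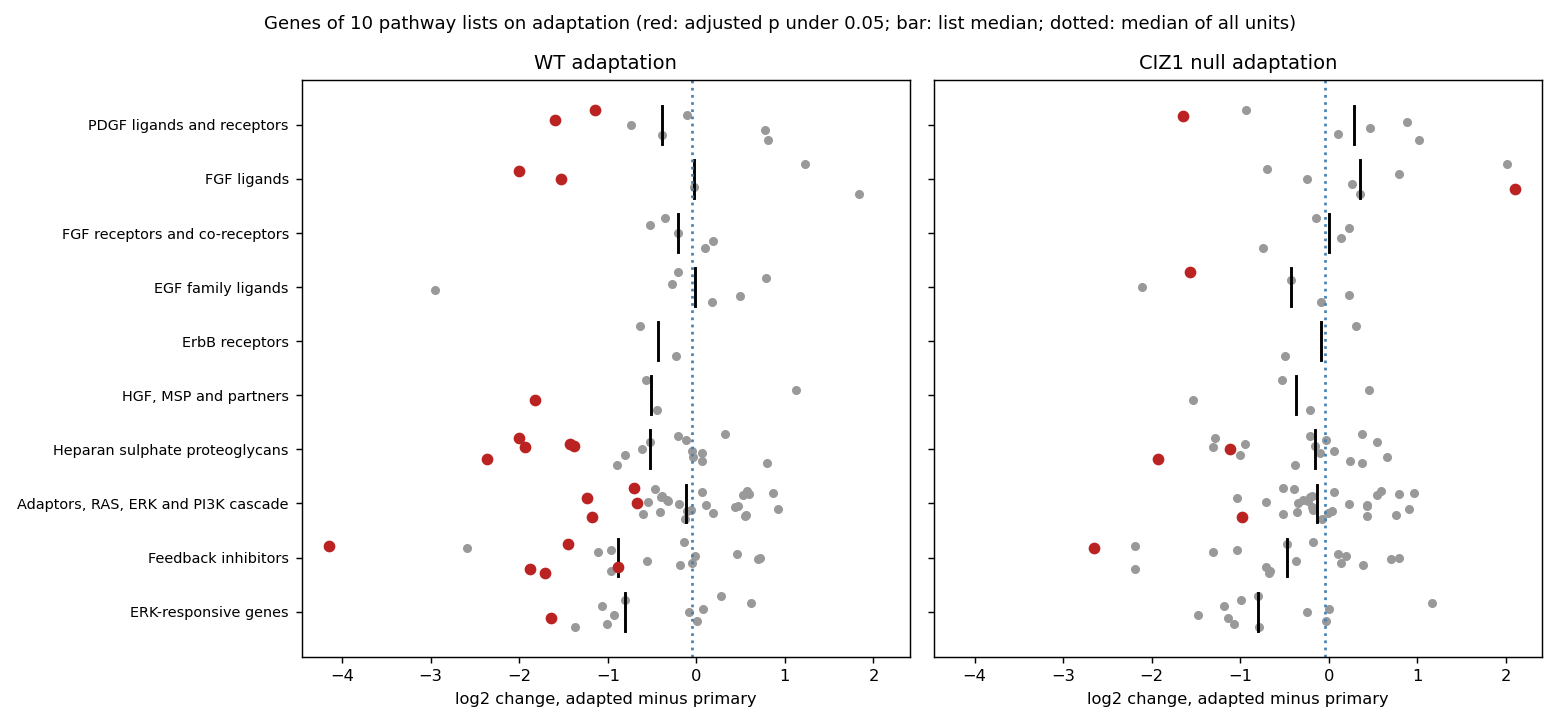
log2 change of each tested gene of the 10 lists on adaptation of WT (left) and CIZ1 null (right) cells, with list medians as bars and the median of all units dotted. Genes with an adjusted p under 0.05 are red: all 20 lie below 0 on the left, while on the right 6 lie below 0 and Fgf7 above.

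Across the 15 samples the units whose pattern was most like that of a gene were found by Pearson r of log2(FPKM + 1). All samples share 1 normalization and several share an embryo, so r is a description. For Fgf7 they were Slain2 (r = 0.951) and Nfkbiz (r = 0.935), for Fgf2 Adamtsl1 (0.888) and Avpr1a (0.880), and for Pdgfra Abca1 (0.902) and Ptcd2 (0.885). Both units most like Pdgfrb carried Aspn, which encodes the matrix protein asporin (0.882 and 0.880). Fgfr1 was most like Rbpms (0.911) and Hoxb5os (0.890), Egfr like Ldlrad3 (0.921) and Cdyl (0.906), and Met like Nox1 (0.924) and Set (0.918). For Hgf the second was Olr1 (0.896), the first having a symbol that the deposited table gives as a date, and the merged Fgfr2 unit was most like Slc1a6 (0.928) and Igsf3 (0.902). Among the 9 genes themselves the highest r were between Pdgfrb and Fgfr1 (0.680) and between Fgf7 and Met (0.660), and the lowest was between the merged Fgfr2 unit and Hgf (-0.867).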

How the data were processed

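RNA-seq was of poly(A)-selected RNA. Per the labels and the study's methods, the authors trimmed reads with Cutadapt 1.8.3, aligned them to GRCm38 with HISAT2 2.0.5, assembled and merged transcripts with Cufflinks, and deposited FPKM per transcription unit, normalised across libraries by Cuffnorm. The kit is not stated to mark strand, so overlapping units cannot be told apart. The deposited table of the authors' own comparisons (group means, fold changes, p-values and q-values) was not used. Groups follow the sample titles, and embryos follow the study's tables of values per line, which match the deposited FPKM. The sample taken as E13.17 has a source name ending in S13, but its title gives S06. It was the third primary CIZ1 null population, as in the study.

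Tests were made with limma (version 3.58.1, R 4.3.3), by lmFit and by eBayes with a variance trend, on log2(FPKM + 1), which understates changes of low genes. Units with a mean of at least 1 FPKM over the samples compared were kept, Benjamini-Hochberg adjustment ran over all of them, and the threshold was 0.05. The fit was tested on simulated data. Alternatives were a pseudocount of 0.1, no filter, a mean of at least 5 FPKM, quantile normalization, a single fit of 4 groups, array weights, a different choice of primary CIZ1 null populations, pairing by embryo, and each sample left out. Summing units that share a locus and a symbol was added after the data had been seen. Pairing rests on each adapted line having come from the primary population of the same embryo, and across units the residuals of the 6 pairs correlated at -0.0193 to 0.21. Populations of a group came from separate embryos, and no pair of libraries was identical. Relative depth was read from steps of values under 0.3 FPKM, and absolute depth is unknown.

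The 9 genes and the pathway lists were chosen with earlier results of these data known. The 9 genes were named in every comparison by their highest unit, list genes where called (at most 5 per list and comparison, with 1 gene not reported here), and for likeness the 2 units with the highest r. Promoter sequences are from RefSeq (GRCm38.p6). Python 3.11.15 was used with pandas 2.3.3, NumPy 2.4.6, Matplotlib 3.10.9 and, for the intervals, SciPy 1.17.1.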

Additional observations from a re-analysis of the deposited data

How the results depend on the processing

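There were 2 or 3 populations per group, the absolute depth is unknown, and both calls depended on the settings. In WT adaptation the number of the 9 genes called was 1 by default and 2 (Fgf2 and Fgf7) with a mean of at least 5 FPKM, quantile normalization, array weights or summed units. It was 0 with the embryo as a replicate block, where all units gave 499 calls in place of 1902, and 0 to 3 when single samples were left out. In CIZ1 null adaptation it was 1 by default and 0 without a filter, with the 2 primary CIZ1 null samples without the transgene, or with the embryo block, where all units gave 10 calls in place of 975. Leaving out single samples gave 0 to 1. The all-4-groups fit called Fgf7 but not Fgf2 in WT adaptation. In the other comparisons no alternative called any of the 9 genes. The number of units called moved by over 1.5 times in further settings, from 62 to 2972 in WT adaptation and from 25 to 2999 in CIZ1 null adaptation when single samples were left out. Some settings also changed the number of units tested. Without a filter it was 988 of 36025 and 322 of 35400. With summed units it was 1107 of 13210 and 575 of 13331. These summed shares were 8.38% and 4.31%, beside 9.55% and 4.86% by default. In CIZ1 null adaptation array weights gave 1936, a single fit of 4 groups 2969, and all 4 untreated primary samples 449, while 2 primary samples without the transgene gave 30. In the interaction, leaving out adapted CIZ1 null E13.15 gave 234 calls in place of 0. The cause of these shifts was not tested.

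Of 782 alternative values of the log2 changes, 53 had the opposite sign, none of them for a gene called by default and none called itself. Outside the omission of samples, 11 did so. In WT adaptation Fgfr2 became 0.013 with quantile normalization. In CIZ1 loss in primary cells Egfr became 0.013 with array weights and Fgf7 0.15 with 2 CIZ1 null samples. In CIZ1 loss in adapted cells array weights gave -0.043 for Fgfr2 and -0.20 for Fgf7. Met became -0.015 in induction with a pseudocount of 0.1. In the interaction array weights gave 0.30 for Pdgfra and -0.071 for Fgf7, 2 CIZ1 null samples gave -0.11 for Fgf7 and -0.0092 for Hgf, and quantile normalization gave -0.072 for Hgf. Leaving out single samples moved the following values across 0. In WT adaptation these were Fgfr2 (-0.65 to 0.43) and Hgf (-1.61 to 0.023). In CIZ1 null adaptation they were Pdgfra (-0.17 to 1.18), Pdgfrb (-0.092 to 0.38), Fgfr1 (-0.18 to 0.56), Fgfr2 (-0.21 to 0.47), Fgf2 (-0.82 to 0.39) and Egfr (-0.088 to 0.82). In CIZ1 loss in primary cells they were Fgf7 (-0.44 to 0.15) and Egfr (-0.26 to 0.035). In CIZ1 loss in adapted cells they were Pdgfra (-0.12 to 1.24), Fgfr2 (-0.45 to 0.63), Fgf7 (-0.49 to 0.37), Met (-0.82 to 0.11) and Hgf (-0.20 to 1.43). In induction they were Pdgfra (-1.26 to 0.82), Fgfr1 (-0.35 to 0.19), Fgfr2 (-0.14 to 0.15), Fgf2 (-0.31 to 0.48), Met (-0.47 to 0.48) and Hgf (-0.89 to 0.64). In the interaction they were Pdgfra (-0.95 to 0.41), Fgfr2 (-0.29 to 0.78), Fgf7 (-0.27 to 0.60) and Hgf (-0.55 to 1.08).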
